A study of Mus musculus with 6 samples.

Results

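The genes described here encode 10 intracellular brakes on SMAD signalling: the inhibitory SMADs Smad7 and Smad6, the membrane-anchored SMAD traps Pmepa1 and Ldlrad4, the ubiquitin ligases Smurf1 and Smurf2, and the nuclear co-repressors Skil, Ski, Tgif1 and Tgif2. They were chosen by symbol with earlier results of these data known, among them the rises of Pmepa1, Smad7 and Skil. All 10 were found among the 55809 gene symbols of the count table. The libraries were made from mRNA of 410.4 cells, a mouse mammary carcinoma line kept for 2 days at 0.5% serum. Control cells, named Veh in the sample titles, received DMEM alone, and the others received DMEM in which neutrophil extracellular traps had been isolated, named NETs. Activated neutrophils cast out such traps, which consist of DNA studded with histones and granule proteins. Each group held 3 libraries of the line, with no genetic change named for either group. By its title the series asks whether NETs activate the TGF-beta pathway in breast cancer cells that metastasise. Whether the replicates came from separate cultures is not in the labels. The p-values therefore measure library-to-library spread, perhaps technical only, and an effect of NETs cannot be told apart from any other difference between the media.

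TGF-beta binds a receptor pair whose kinases phosphorylate SMAD2 and SMAD3, and these move to the nucleus with SMAD4 and regulate genes. Bone morphogenetic proteins (BMPs) use related receptors and SMAD1 and SMAD5. Several of the genes that SMADs switch on encode brakes on the same pathway, which makes their mRNA a common readout of pathway activity. Inhibitory SMADs occupy the receptor and bring in ubiquitin ligases, membrane traps keep SMADs from the receptor, and co-repressors sit on SMAD complexes at DNA.

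The libraries held 31119105 to 64431811 counts. The TMM scaling factors were 1.03, 1.03 and 1.01 in control replicates 1 to 3 and 0.986, 0.968 and 0.976 in NET replicates 1 to 3. The factors thus did not overlap between the groups, and the scaling raised NET levels relative to control levels. Of 13 mammary epithelial markers 12 had counts in every library, among them the adhesion gene Epcam at 685 and 655 CPM (counts relative to the TMM-scaled library size, control then NETs), while Elf5 had 0 counts in each control library and 10, 20 and 26 with NETs. These markers summed to 5061 to 5414 CPM in control medium and 5726 to 5950 CPM with NETs. Among them 5 were called higher, Krt14 16.2-fold from 6.33 to 102 CPM, and 3 lower, Krt18, Cdh1 and Cldn7, all singled out after their values were seen. Neutrophil markers summed to 1.76 to 2.28 CPM in control medium and 3.06 to 3.41 CPM with NETs. Of these 15 genes 7 had no count in any library, Elane, Ctsg, Camp, Ngp, Csf3r, Retnlg and Mmp8, where a count of 0 allows at most 0.0902 to 0.199 CPM per library for counting error. S100a8, which epithelial cells can also express, made up most of the sum, at 1.38 ± 0.300 CPM in the control and 2.63 ± 0.148 CPM in the NET libraries (SD, n = 3). Macrophage markers summed to 36.0 to 40.2 CPM in control medium and 88.3 to 97.5 CPM with NETs, of which Csf1r alone gave 24.1 ± 1.43 and 80.2 ± 5.30 CPM, while Mrc1 fell from 1.05 to 0.405 CPM (adjusted p = 0.00169), Cd68 had 12.4 and 10.7 CPM and was not called, and Adgre1, C1qb and C1qc of the 8 had no count. Fibroblast markers summed to 42.9 to 48.8 and 59.3 to 68.0 CPM. Most of this was Pdgfra, at 45.4 and 49.2 CPM and not called, and Col1a1 rose 11.3-fold from 1.18 to 13.4 CPM (adjusted p = 2.34e-11), with Dcn, Lum and Thy1 of the 9 at a count of 0. The part of these marker shifts in the results below was not tested, and in bulk RNA a change in the share of cells that express a gene and a change in RNA per cell cannot be told apart.

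With NET-conditioned medium 9 of the 10 genes rose by edgeR's quasi-likelihood test and 0 fell (adjusted p under 0.05 over 13956 genes tested). Over all tested genes 20.2% were called higher and 18.7% lower, 38.9% in all. As the genes were chosen with the rises of Pmepa1, Smad7 and Skil known, the counts of this paragraph are no independent support. The rises ran from 8.51-fold for Pmepa1 to 1.12-fold for Smurf2, and 5 of the 10 were at least 2-fold, where 3.65% of all tested genes were. The other 4 rises were under 2-fold, as were the changes of 33.0% of all tested genes that were called in either direction. Tgif2 was the gene not called. At an unadjusted p under 0.05 the count was also 9 higher and 0 lower, as it was with adjusted p-values in DESeq2 and in limma-voom. The median log2 fold change of the 10 genes was 0.91, against -0.0039 over all tested genes, of which the 5th to 95th percentile lay between -0.74 and 0.86. At each of the 10 genes the groups lay apart, against 49.0% of all tested genes. The NET libraries were the higher ones at 9 of them, as at 24.4% of all tested genes, and the lower ones at Tgif2, as at 24.5%. With library size alone as the scaling, the genes called higher over the whole table fell from 2825 to 2106 and those called lower rose from 2605 to 3763, so that 35.9% instead of 52.0% of called genes were higher, and 8 of the 10 genes were called higher.

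**Figure D1:**
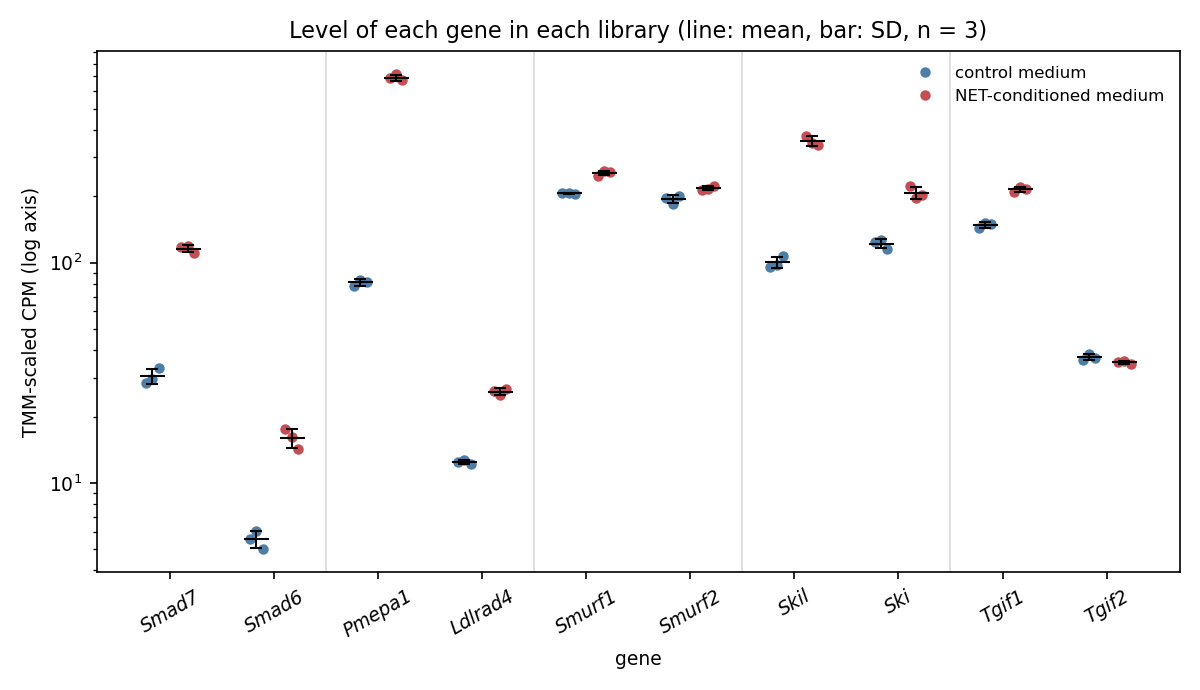
Level of each of the 10 genes in each library, in TMM-scaled CPM on a log axis, for control medium (blue) and NET-conditioned medium (red). Points are libraries, lines are means and bars are SD (n = 3). Pmepa1 goes from 81.2 to 691 CPM, and at Tgif2 the groups lie close together, at 37.1 and 35.2 CPM.

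**Figure D2:**
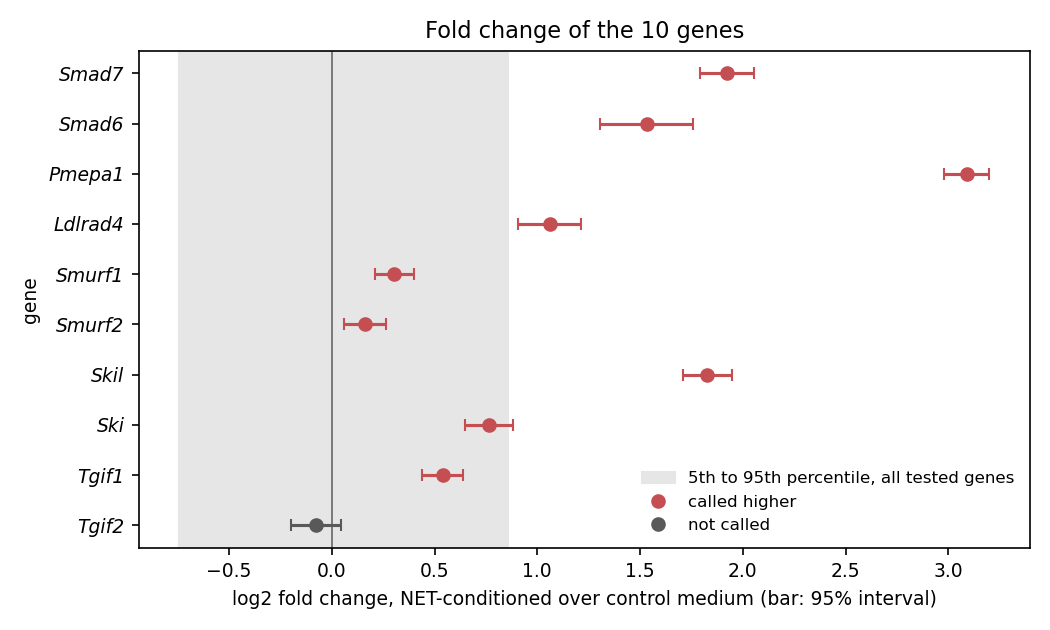
Log2 fold change of each gene, NET-conditioned over control medium, with its 95% interval derived from the edgeR fit. The grey band spans the 5th to the 95th percentile of all tested genes, -0.74 to 0.86. Pmepa1, Smad7, Skil, Smad6 and Ldlrad4 lie beyond it, and the interval of Tgif2 includes 0.

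The inhibitory SMADs rose together, from different levels. Smad7, which blocks the TGF-beta receptor and recruits Smurf ligases to it, stood at 28.5, 29.7 and 33.3 CPM in control medium replicates 1 to 3 and at 118, 118 and 111 CPM in NET replicates 1 to 3. Every NET library lay well above every control library. The rise was 3.79-fold (log2 fold change 1.92, SE 0.06, 95% interval 3.46-fold to 4.16-fold, adjusted p = 2.74e-13). Smad6, which mainly restrains BMP receptors and is itself a known BMP target, stood at 5.55, 6.02 and 5.03 CPM in control medium and at 17.5, 16.1 and 14.3 CPM with NETs. It rested on the fewest reads of the 10 genes, 272 to 369 counts per control library and 486 to 786 per NET library, and had the largest spread with NETs, a coefficient of variation of 10.2%. Its rise was 2.89-fold (log2 fold change 1.53, SE 0.11, adjusted p = 5.21e-09), and the groups lay apart.

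The start of Smad6 is shown because it carries a complete SMAD binding element. Its promoter in the RefSeq table (build GRCm38.p6, chr9:64022056-64022309, minus strand, from 250 bases before the start to 4 bases after it) holds the palindrome GTCTAGAC, in capitals, from position -4 to 4 around the annotated start, where there is no position 0.
Smad6: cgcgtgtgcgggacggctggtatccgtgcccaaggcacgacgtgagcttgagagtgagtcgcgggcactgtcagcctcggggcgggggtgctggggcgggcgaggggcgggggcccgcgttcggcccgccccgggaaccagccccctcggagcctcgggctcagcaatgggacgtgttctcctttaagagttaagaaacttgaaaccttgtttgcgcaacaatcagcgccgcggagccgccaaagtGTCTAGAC
This element stood in 70 of 32851 promoters of the table (0.21%, both strands, windows of 300 bases). Of the 10 genes 6 had an entry there, with 10 entries in all, 5 of them for Tgif1, and Smad6 alone of the 6 held the palindrome. The match spans the start, so it is absent where only the 250 bases before the start are read. A match describes letters in this window and is not shown to be bound.

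Of the membrane traps, Pmepa1 changed most of all 10 genes. It encodes a single-pass protein that binds SMAD2 and SMAD3 and keeps them from the receptor. Its level was 78.5, 83.7 and 81.4 CPM in control medium and 687, 714 and 672 CPM with NETs. The replicates of both groups varied by little, with coefficients of variation of 3.19% and 3.06%, and the 8.51-fold rise had a 95% interval of 7.89-fold to 9.19-fold (log2 fold change 3.09, SE 0.05, adjusted p = 4.44e-17). In the order of all rises by fold change it stood at rank 76 of 13956, and by p-value at rank 5 of changes in either direction. Ldlrad4, a related protein that binds the same SMADs, stood at 12.5, 12.7 and 12.2 CPM in control medium and at 26.1, 25.1 and 26.7 CPM with NETs. This was a 2.09-fold rise with no overlap (log2 fold change 1.06, SE 0.07, adjusted p = 3.59e-09). Exons of Fam210a on the other strand cover 52.1% of the exon bases of Ldlrad4, and whether reads were counted by strand is not stated, so its level is uncertain. Fam210a itself had 103 ± 0.898 CPM in the control and 98.2 ± 6.88 CPM in the NET libraries (log2 fold change -0.07, adjusted p = 0.336).

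The ubiquitin ligases rose least among the genes called. Smurf1 and Smurf2 attach ubiquitin to SMADs, to their receptors through Smad7, and to other proteins such as RhoA. Smurf1 stood at 207, 207 and 205 CPM in control medium and at 248, 259 and 257 CPM with NETs, a 1.24-fold rise (log2 fold change 0.30, SE 0.05, adjusted p = 4.06e-05). The control libraries of Smurf1 were closer together than those of any other of the 10 genes, with a coefficient of variation of 0.368%. Smurf2 stood at 195, 185 and 201 CPM in control medium and at 213, 217 and 222 CPM with NETs, a 1.12-fold rise (log2 fold change 0.16, SE 0.05, adjusted p = 0.0126). The groups of Smurf2 did not overlap, but the call was lost with library size alone (log2 fold change 0.09, adjusted p = 0.106), without control replicate 2 (0.13, adjusted p = 0.0656) and without NET replicate 3 (0.14, adjusted p = 0.0766).

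The promoter of Smurf2 is shown because it was the only one of the 10 entries with both of the short motifs below (RefSeq, GRCm38.p6, chr11:106920716-106920965, minus strand, the 250 bases before the start). Capitals mark GTCTG, a short SMAD3 and SMAD4 element, and GGCGCC, a GC-rich element bound by SMADs of the BMP branch, read on both strands.
Smurf2: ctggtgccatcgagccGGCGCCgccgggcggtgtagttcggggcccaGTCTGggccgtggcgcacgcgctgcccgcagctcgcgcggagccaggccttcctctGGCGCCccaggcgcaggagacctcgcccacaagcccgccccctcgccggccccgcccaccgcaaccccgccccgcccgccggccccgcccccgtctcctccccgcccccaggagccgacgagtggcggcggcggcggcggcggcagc
The GC-rich GGCGCC occurred at 2 places here and in 11.87% of all promoters, and GTCTG at 1 place in the printed bases. The short GTCTG is common, standing in 49.59% of promoters of the table, among them those of Smurf1, Smurf2 and Tgif1.

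Among the nuclear co-repressors, Skil and Ski rose by different amounts. Skil encodes SnoN, which binds SMAD complexes and recruits NCoR and histone deacetylases, and is a target that SMADs induce themselves. It stood at 95.9, 97.9 and 107 CPM in control medium and at 376, 350 and 341 CPM with NETs. The groups lay far apart, with a 3.55-fold rise (log2 fold change 1.83, SE 0.06, 95% interval 3.27-fold to 3.85-fold, adjusted p = 9.58e-14). Ski, the founding member of this protein family with the same partners, stood at 124, 126 and 115 CPM in control medium and at 221, 196 and 204 CPM with NETs. It rose 1.70-fold (log2 fold change 0.76, SE 0.06, adjusted p = 9.60e-09), again with every NET library above every control library. The promoter of Ski is shown as the example of the GC-rich element in a setting rich in G and C. The printed bases are the 250 before the start (RefSeq, GRCm38.p6, chr4:155222536-155222785, minus strand), with GGCGCC in capitals.
Ski: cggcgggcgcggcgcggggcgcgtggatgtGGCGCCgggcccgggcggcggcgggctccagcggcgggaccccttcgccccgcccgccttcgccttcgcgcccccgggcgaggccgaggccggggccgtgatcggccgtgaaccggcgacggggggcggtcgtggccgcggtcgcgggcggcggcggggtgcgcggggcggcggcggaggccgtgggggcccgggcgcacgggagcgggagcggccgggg
Over its window of 300 bases 85.3% of the letters were G or C and it held 59 CpG dinucleotides, the highest of the 10 entries, against medians of 52.7% and 7 over the table. GGCGCC occurred at 1 place and neither GTCTAGAC nor GTCTG was found.

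The homeobox repressors went apart. Tgif1 encodes a protein that binds SMAD2 and SMAD3 and recruits co-repressors, and also binds DNA by itself. It stood at 143, 151 and 150 CPM in control medium and at 209, 220 and 215 CPM with NETs, a 1.45-fold rise (log2 fold change 0.54, SE 0.05, adjusted p = 8.42e-08). Tgif2, its close relative, stood at 36.2, 38.4 and 36.7 CPM in control medium and at 35.2, 35.6 and 34.8 CPM with NETs. Its NET libraries all lay below its control libraries, yet the difference did not pass the test (log2 fold change -0.08, SE 0.06, adjusted p = 0.320), and the 95% interval ran from a 0.872-fold to a 1.03-fold level. Exons of 5430405H02Rik and Gm37790 on the other strand cover 74.6% of the exon bases of Tgif2, so its level is uncertain. The first of these had 3.45 ± 0.449 CPM in the control and 3.08 ± 0.183 CPM in the NET libraries. The promoter of Tgif2 is shown because it belongs to the gene that was not called (RefSeq, GRCm38.p6, chr2:156839757-156840006, plus strand, the 250 bases before the start). Capitals mark GGAATG, the core of TEAD binding, here on the opposite strand.
Tgif2: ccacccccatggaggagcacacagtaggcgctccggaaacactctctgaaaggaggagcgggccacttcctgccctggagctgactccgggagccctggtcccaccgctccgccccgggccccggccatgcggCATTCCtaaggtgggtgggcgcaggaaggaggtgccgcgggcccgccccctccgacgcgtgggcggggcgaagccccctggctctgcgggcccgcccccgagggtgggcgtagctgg
The entry held none of GTCTAGAC, the short GTCTG and the GC-rich GGCGCC, nor the AP-1 motif TGANTCA or the TGIF motif CTGTCAA. The TEAD core GGAATG stood in 14.66% of all promoters and in none of the other entries of these genes. CTGTCAA stood in 3.55% of promoters, among them 1 of the 5 entries of Tgif1 itself, past its start, and TGANTCA in 7.81% and in none of the 6 genes.

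The genes form 5 pairs of related proteins, and the ratio within a pair does not depend on how libraries were scaled. Counts were divided by the summed exon length of each gene for these ratios, so that the genes of a pair can be compared. Which transcripts were expressed was not tested, so whether a gene lies above its partner depends on that length. In the fold change of a ratio between media that length cancels, provided that the medium did not change which transcripts were expressed. In all 5 pairs the first gene named gained on its partner, and the 3 NET libraries lay above the 3 control libraries. Which gene is named first is a matter of naming, so the shared direction is no result in itself. Groups lay apart at 49.0% of single tested genes, and no such share was computed for ratios. Pmepa1 over Ldlrad4 shifted most, from 6.87, 7.20 and 7.27 in control medium to 28.8, 31.1 and 27.5 with NETs, a 4.09-fold change of the ratio. Skil over Ski went from 0.443, 0.445 and 0.532 to 0.974, 1.02 and 0.961. Per kilobase of exon, Skil was thus below Ski in control medium and close to level with it in NET-conditioned medium, a 2.09-fold change of the ratio. Tgif1 over Tgif2 went from 2.69, 2.67 and 2.78 to 4.05, 4.21 and 4.22. Smad7 over Smad6 went from 3.63, 3.49 and 4.68 to 4.76, 5.19 and 5.49, with control replicate 3 close to the lowest NET library. Smurf1 over Smurf2 went from 1.03, 1.08 and 0.991 to 1.13, 1.16 and 1.13, the smallest shift at 1.10-fold. Each of the 5 comparisons gave an exact two-sided permutation p = 0.1, also after Benjamini-Hochberg adjustment over the 5 pairs, and 0.1 is the smallest p that 3 libraries against 3 can give, so none could pass 0.05. The ratios that include Ldlrad4 or Tgif2 carry the uncertainty of their overlapping exons.

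**Figure D3:**
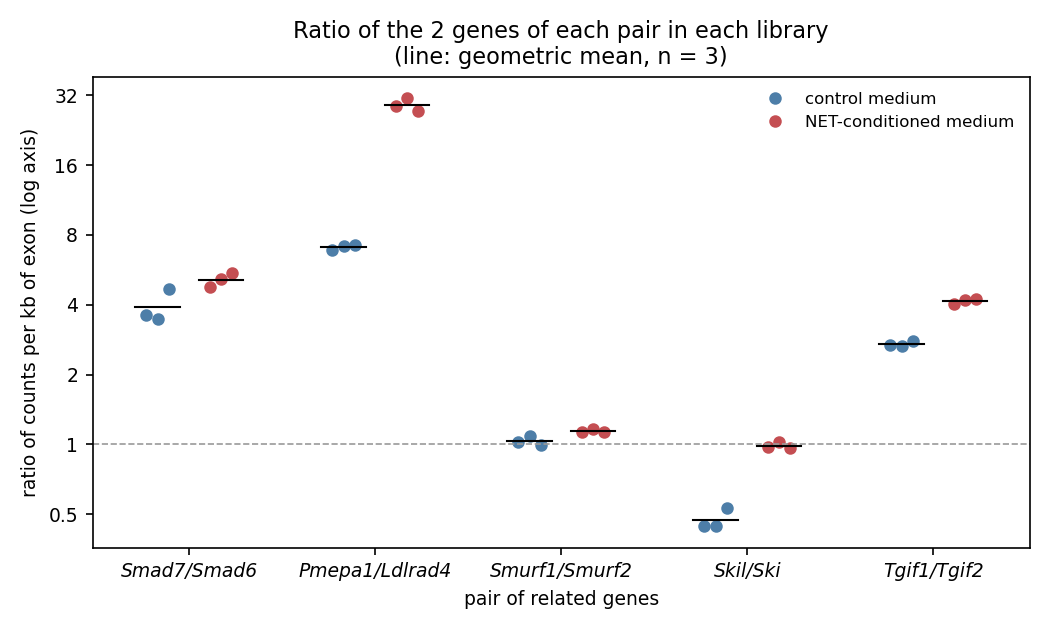
Ratio of counts per kilobase of exon between the genes of each pair, on a log axis, in each control (blue) and NET (red) library, with the geometric mean as a line. The dashed line marks equal levels. Skil over Ski moves from 0.472 to 0.986, and Pmepa1 over Ldlrad4 from 7.11 to 29.1.

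Per kilobase of exon, the order of the 10 levels changed with the medium. This order rests on the summed exon length of each gene, whichever transcripts were expressed. The places of Ldlrad4 and Tgif2 in it also carry the uncertainty of their overlapping exons. In control medium Smurf1 (32.5 ± 0.120 CPM per kb) and Smurf2 (31.5 ± 1.33) were highest and overlapped, followed by Tgif1 (26.3 ± 0.736), Ski (21.9 ± 1.06), Pmepa1 (16.5 ± 0.527), Skil (10.3 ± 0.596), Tgif2 (9.69 ± 0.307), Smad7 (6.75 ± 0.557), Ldlrad4 (2.32 ± 0.0446) and Smad6 (1.73 ± 0.154). Apart from Smurf1 with Smurf2 and Skil with Tgif2, neighbours in this order did not overlap between libraries. With NETs Pmepa1 stood first at 141 ± 4.31 CPM per kb. Smurf1, Tgif1, Ski, Skil and Smurf2 came next within 35.2 to 40.2 CPM per kb, where each overlapped its neighbour. Smad7 followed at 25.6 ± 0.949, then Tgif2 at 9.18 ± 0.111, and Smad6 and Ldlrad4, which overlapped, at 4.99 ± 0.509 and 4.83 ± 0.157 CPM per kb. The summed level of the 10 genes went from 160 ± 1.60 to 373 ± 5.49 CPM per kb. Pmepa1 made up 10.4% ± 0.261 of that sum in control medium and 37.7% ± 0.719 with NETs, and the Smurf genes together the largest part in control medium, 20.4% and 19.7%, against 10.8% and 9.46% with NETs.

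**Figure D4:**
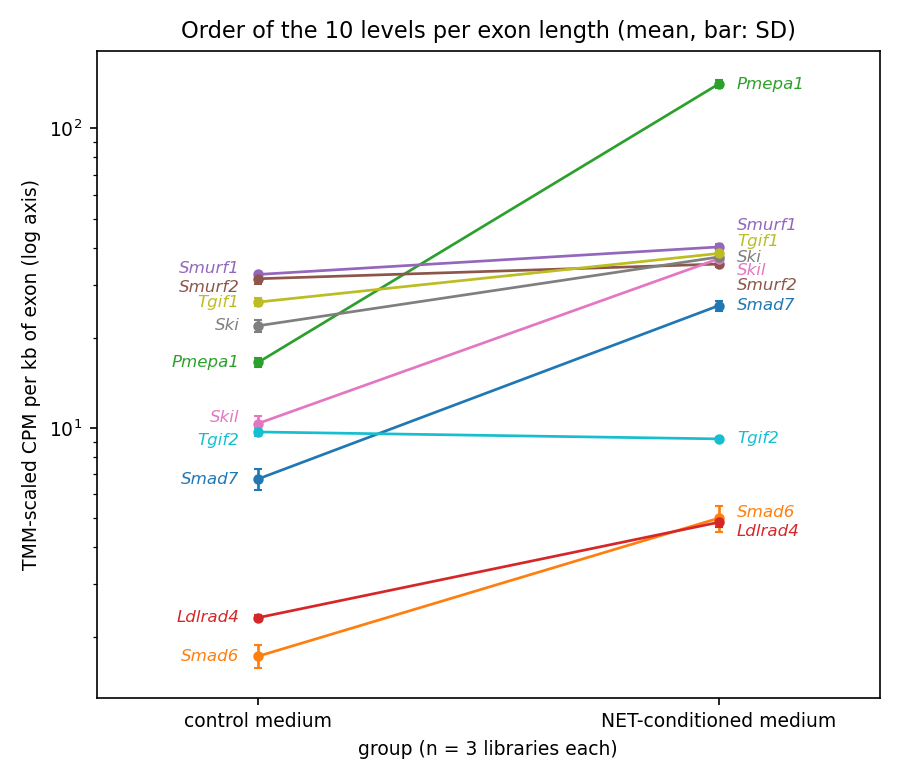
Mean TMM-scaled CPM per kilobase of exon of each gene in control and in NET-conditioned medium, on a log axis, with SD as bars (n = 3). Pmepa1 passes from the fifth place at 16.5 to the first at 141, Skil passes from 10.3 to 36.7, and Tgif2 goes from 9.69 to 9.18.

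The genes whose profiles over the 6 libraries lay nearest to those of the strongest responders were taken from 9837 candidates with at least 5 CPM. Nearness was the root mean square difference of centred log2 CPM, which here mostly measures how alike the fold changes are. Nearest to Pmepa1 were the Notch ligand gene Jag1 (difference 0.096), the focal adhesion scaffold gene Nedd9 (0.135) and Mab21l4 (0.136), which rose 8.88-fold, 7.38-fold and 10.2-fold. Nearest to Smad7 was Skil (0.057), then the tenascin C gene Tnc (0.059) and Moxd1 (0.070). Nearest to Skil were Smad7 (0.057), Tnc (0.057) and the connexin gene Gja1 (0.063). Tnc, Moxd1 and Gja1 rose 3.62-fold, 3.80-fold and 3.53-fold.

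The genes upstream of these brakes went both ways. Of 10 tested genes for TGF-beta ligands, receptors and transducers 3 rose and 4 fell, where 20.2% of all tested genes rose and 18.7% fell, and their median log2 fold change was -0.05. Tgfbr2 and Tgfbr1, the receptor genes that Smad7 acts on, fell from 216 ± 3.86 to 160.2 ± 6.59 CPM and from 134 ± 2.61 to 107 ± 1.51 CPM (log2 fold changes -0.43 and -0.33, adjusted p = 1.72e-06 and 2.35e-05). Smad3, a transducer that Pmepa1, Skil and Tgif1 bind, fell from 299 ± 9.18 to 231 ± 14.4 CPM (adjusted p = 2.37e-05). The fourth to fall was the ligand gene Tgfb3, named after its values were seen, from 60.4 to 53.0 CPM, a call lost when control replicate 2 or NET replicate 1 or 3 was left out. Smad2 had 85.6 ± 1.66 and 85.7 ± 2.42 CPM (adjusted p = 0.965), and the receptor adaptor gene Zfyve9 had 78.4 ± 0.331 and 72.7 ± 3.21 CPM (adjusted p = 0.114). Of the called ligand and co-receptor genes, Tgfb2 rose 2.60-fold and Eng 1.63-fold to low levels of 2.06 ± 0.245 and 2.57 ± 0.225 CPM, and Tgfb1 1.15-fold, a call lost with library size alone (log2 fold change 0.13), without control replicate 1 (0.16) and without NET replicate 2 (0.16).

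Most tested genes of a list of TGF-beta/SMAD targets that leaves out the 10 brakes rose. Of these 17 genes 12 rose and 1 fell, where 20.2% of all tested genes rose and 18.7% fell. Snai2 and Cdkn2b of the same list had no count in any library and were not tested. The median log2 fold change of the 17 genes was 1.31. Jag1 rose from 36.0 ± 2.44 to 320.3 ± 18.7 CPM and Nedd9 from 20.2 ± 1.69 to 149 ± 4.49 CPM, while the early response gene Klf10 fell from 108 ± 4.27 to 84.1 ± 3.93 CPM (adjusted p = 3.85e-05). The basement membrane gene Col4a1 had 458 ± 24.5 and 443 ± 17.8 CPM (adjusted p = 0.507), and the transglutaminase gene Tgm2 117 ± 5.31 and 123 ± 4.28 CPM (adjusted p = 0.313). Targets of the BMP branch, which Smad6 restrains, went both ways. Of 6 tested genes 1 rose and 3 fell, beside 20.2% and 18.7% of all tested genes, with a median log2 fold change of -0.19. Id1, an inhibitor of basic helix-loop-helix factors, went up 1.63-fold, from 32.4 ± 2.61 to 52.8 ± 7.23 CPM (adjusted p = 2.51e-05). Its relatives fell, Id3 from 56.0 ± 3.79 to 36.4 ± 2.83 CPM (adjusted p = 1.50e-06), Id2 from 9.57 ± 0.467 to 5.78 ± 0.888 CPM and Id4 from 2.30 ± 0.122 to 1.31 ± 0.325 CPM. Dlx3 and Hey1 stood at 0.275 and 0.104 CPM in control medium and were not called, and 4 further genes of this list, Atoh8, Msx1, Msx2 and Smad9, had no count in any library.

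Of 15 tested genes for co-repressor complex partners 5 rose and 0 fell, beside 38.9% of all tested genes called in either direction. Their median log2 fold change was 0.05, and 1 fell with library size alone. At an unadjusted p under 0.05 edgeR called 0 lower, and DESeq2 and limma-voom each called 0 lower. Hipk2, a kinase that acts with Ski and other co-repressors, rose 1.92-fold from 77.0 ± 2.52 to 148 ± 10.6 CPM (adjusted p = 7.86e-10). The co-repressor gene Ctbp2 rose 1.22-fold. Ctbp1 and Hdac2, named here after their values were seen, were also among the genes called higher. Ncor1, the scaffold of the complex that Ski and SnoN recruit, had 357 ± 0.909 and 371 ± 16.5 CPM (adjusted p = 0.408), and Tbl1x, another part of that complex, 192 ± 2.76 and 188 ± 4.73 CPM (adjusted p = 0.626). Of 13 tested ubiquitin ligases and deubiquitinases other than the Smurf genes 4 rose and 0 fell (median 0.12), beside 20.2% and 18.7% of all tested genes. These counts became 2 and 1 with library size alone, and 6 rose in DESeq2 and without control replicate 3. At an unadjusted p under 0.05 edgeR called 8 higher and 0 lower, and DESeq2 and limma-voom called 0 lower after adjustment. Usp11, a deubiquitinase of the TGF-beta receptor, rose 1.56-fold to 17.5 ± 1.06 CPM (adjusted p = 2.95e-05), Itch, a relative of the Smurf ligases, 1.14-fold (adjusted p = 0.00336), and Usp9x, a deubiquitinase of SMAD4, 1.19-fold (adjusted p = 0.00744), a call lost with library size alone (log2 fold change 0.18). The other was Wwp1, named after its values were seen, which went from 44.4 to 50.1 CPM and lost its call in 5 of 15 alternatives. Nedd4, another relative, had the highest level at 1219.9 ± 13.1 and 1325 ± 61.6 CPM (adjusted p = 0.0709), and the receptor deubiquitinase gene Usp4 had 142 ± 4.04 and 138 ± 1.08 CPM (adjusted p = 0.526).

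No other inhibitor of the pathway was called higher with all libraries. Of 9 tested genes for other inhibitors of receptors and SMADs 0 rose and 3 fell, where 20.2% of all tested genes rose and 18.7% fell. With upper-quartile factors 5 fell, and with library size alone 5 fell. Under these 2 settings the genes called lower over the whole table also went up, from 2605 to 2986 and to 3763. The median log2 fold change of the 9 inhibitor genes was -0.11. At an unadjusted p under 0.05 edgeR still called 0 of them higher and 5 lower, and DESeq2 and limma-voom each called 0 higher, while 1 was called higher without control replicate 3. Sik1, a kinase that acts with Smad7 on the receptor, fell from 81.9 ± 1.53 to 64.3 ± 0.834 CPM (adjusted p = 2.61e-05), Tob2, an antiproliferative gene, from 58.1 ± 2.08 to 46.4 ± 1.60 CPM (adjusted p = 1.82e-04), and the SMAD phosphatase gene Ppm1a from 239 ± 6.79 to 217 ± 6.63 CPM (adjusted p = 0.0266). The call of Ppm1a was lost without control replicate 2 (log2 fold change -0.12), NET replicate 1 (-0.12) or NET replicate 3 (-0.15). The phosphatase gene Ppp1ca had 448 ± 7.04 and 415 ± 16.1 CPM (adjusted p = 0.0790) and the receptor-binding immunophilin gene Fkbp1a 377 ± 19.0 and 404 ± 13.4 CPM (adjusted p = 0.123). Bambi, a decoy receptor and a classic feedback inhibitor, singled out after its values were seen, had no count in any of the 6 libraries.

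**Figure D5:**
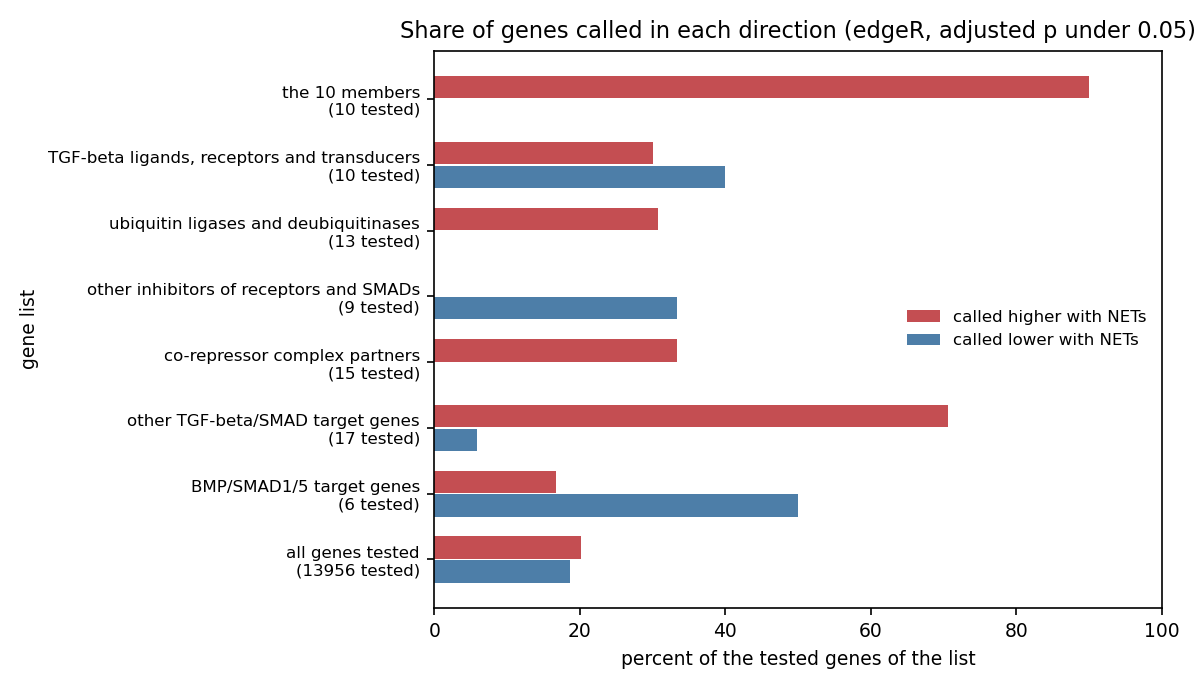
Percent of tested genes called higher (red) and lower (blue) with NETs by edgeR, for the 10 brakes (labelled members), 6 lists of related genes and all 13956 tested genes. The brakes reach 90% higher and all tested genes 20.2% higher and 18.7% lower.

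By position the 10 genes are scattered over 8 chromosomes in the coordinates of the count table, counted from 1. Pmepa1 spans 173066251 to 173118326 on the minus strand of chromosome 2, which also holds Tgif2 at 156681927 to 156697490. Skil spans 31149207 to 31176726 on chromosome 3, Ski 155238532 to 155307049 on chromosome 4, Smurf1 144813305 to 144902657 on chromosome 5, Smad6 63860358 to 63929341 on chromosome 9, Smurf2 106710892 to 106811541 on chromosome 11 and Tgif1 71151200 to 71160541 on chromosome 17. Smad7 (75500600 to 75529006) and Ldlrad4 (68066328 to 68401701) share chromosome 18. Exons and introns together, the genes are from 9.3 kb for Tgif1 to 335.4 kb for Ldlrad4 long, and the build of these positions is not that of the promoter table, since 11.3% of 38933 symbols overlapped their GRCm38.p6 position. Besides Ldlrad4 and Tgif2, overlap with exons of other genes covered 1.8% of the exon bases of Tgif1 and 0.9% of those of Smurf2.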

How the data were processed

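RNA was measured in 6 libraries of 410.4 cells, of which 3 belong to each medium by their titles. Per the labels' protocols, RNA came from a column kit and libraries from a stranded mRNA kit. The authors deposited whole-number counts per gene symbol in the columns of a featureCounts output, with exon positions and summed exon length. The tools named in the submitters' processing notes are STAR 2.7.10a and featureCounts of Subread 2.0.3, with build mm10, although 11.3% of symbols overlapped their mm10 position. For the strand setting and the annotation, the sources used here give nothing. Between 74.8% and 78.4% of counts from 1 to 20 were even, so mates of a pair may have been counted separately, and the limit for a count of 0 was set at 3 fragments, taken as 6 counts. That limit covers counting error only. The intervals of fold changes were derived from the edgeR fit and also cover the spread between libraries of a group, perhaps technical only.

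Counts were scaled by TMM and filtered by filterByExpr (minimum count 10, 13956 genes left). Groups were compared in edgeR 4.0.16 (glmQLFit with robust estimation, glmQLFTest, R 4.3.3) with the medium as the only term. Benjamini-Hochberg adjustment ran over all tested genes, with calls at an adjusted p under 0.05. Fold changes are from that fit. The SE was derived from it, as the absolute log2 fold change divided by the square root of the F statistic. The 95% intervals were built from this SE and a t quantile, and mean ± SD values are over 3 libraries. Ratios within pairs used counts plus 1. Pairs of libraries of a group differed by 9.59 to 25.1 times the variance that independent sampling of each count gives (chi-square per degree of freedom). If mates were counted separately, sampling alone would give a larger variance and the excess would be smaller. Each library was counted once. The scripts were tested on simulated data.

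The 10 genes, the lists of related and marker genes and the tests were chosen with earlier results of these data known, and the rises of Pmepa1, Smad7 and Skil were among those results, so the counts are no independent support. The rule named all 10 genes, up to 3 called genes per direction and up to 2 uncalled genes of each of the 6 lists of related genes, and the 3 nearest profiles of Pmepa1, Smad7 and Skil. Some genes that the rule named are not reported here. Alternatives were RLE and upper-quartile factors, library size alone, no filter, a filter of 1 CPM in 3 libraries, DESeq2 1.42.0, limma-voom (limma 3.58.1), a replicate block, halved counts and leaving out each library. Promoters came from a RefSeq table (GRCm38.p6), from 250 bases before to 50 after each start. A planned search of protein motifs was not run, and protein sequences were not used here.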

Additional observations from a re-analysis of the deposited data

How the results depend on the processing

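The counts of genes called, over all genes and over the 10 brakes, stayed within 1.5 times in each of the 15 alternatives to the edgeR fit, and the ratios within pairs moved by less than the spread between replicates in 9 alternatives each. Of 150 recomputed fold changes of the brakes 147 kept direction and call, and the other 3 are those of Smurf2 given above. In the lists, other inhibitors called lower went from 3 to 5 with upper-quartile factors and 5 with library size alone, BMP targets called higher went from 1 to 2 in limma-voom, and promoter matches to GTCTAGAC and CTGTCAA each went from 1 gene to 0 with only the bases before the start. Of the named genes not called with all libraries, Nedd4, Fkbp1a and Hey1 were called higher and Zfyve9 and Ppp1ca lower in 1 to 3 alternatives each. Small values that were not called changed sign. The log2 fold change of Smad2 was -0.0196 with upper-quartile factors, -0.0644 with library size alone, -0.00883 with no filter and from -0.0154 to 0.0257 with 1 library left out. That of Ncor1 was -0.0144 and that of Tgm2 -0.000464 with library size alone, and that of Dlx3 ran from -0.0837, without NET replicate 3, to 0.618 with 1 library left out. The cause was not tested. Replicate numbers are shared between the groups. Deviations from the group means correlated at 0.118, -0.059 and 0.056 for numbers 1 to 3, and not every library correlated best with its own number, so the numbers were not taken to pair the libraries. With a replicate block 2969 genes were higher and 2713 lower, and 9 brakes were higher and 0 lower. Depth limits genes near 0 counts such as Elf5, and halving the counts changed no call of the brakes.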
